A study of Mus musculus with 13 samples.

Results

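The collagen hydroxylases and lysyl oxidases are enzymes that modify collagen chains inside the cell and cross-link collagen and elastin outside it. The 10 genes described here are 5 lysyl oxidases (Lox, Loxl1, Loxl2, Loxl3 and Loxl4), 3 lysyl hydroxylases (Plod1, Plod2 and Plod3) and 2 alpha subunits of prolyl 4-hydroxylase (P4ha1 and P4ha2). They were taken by symbol from a table of read counts for 23418 genes, and all 10 were among the 15412 genes with enough counts to be tested. The mouse series was made to look for signals from the niche of muscle stem cells. It has bulk RNA sequencing of muscle FAPs in 4 libraries (numbered 2 to 5), lung FAPs in 5 (1 to 5) and MEFs in 4 (1 to 4). In this field FAP stands for fibro/adipogenic progenitor, a mesenchymal cell of tissue stroma, and MEFs are fibroblasts grown from mouse embryos. The labels give no treatment or altered genotype for any group, and do not state strain, age or the sort of the cells. Nothing says that replicates came from separate animals or cultures, so p-values measure the spread between these libraries, which may be technical.

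Newly made collagen chains are hydroxylated in the endoplasmic reticulum before they fold into a triple helix. Prolyl hydroxylation, by alpha subunits that assemble with P4hb, makes the helix stable at body temperature, and lysyl hydroxylation prepares sites for sugars and cross-links. Both kinds of hydroxylase need iron, oxygen, 2-oxoglutarate and ascorbate. After secretion the copper-dependent lysyl oxidases turn lysines and hydroxylysines into reactive aldehydes, which join neighbouring collagen or elastin molecules. Fibroblasts and related mesenchymal cells are a main source of these enzymes in muscle and lung.

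Total counts per library ran from 41327292 to 44699463 for muscle, 28636183 to 35464622 for lung and 33756915 to 41466585 for MEFs. Levels are CPM, read counts relative to the total of a library, scaled by edgeR's TMM factors, given as group mean ± SD, with n = 4, 5 and 4 for FAPs from muscle, FAPs from lung and MEFs. A log2 fold change is the first group over the second, and a gene passed at an adjusted p under 0.05 in edgeR's quasi-likelihood test. The summed level of the FAP markers Pdgfra, Ly6a and Cd34 was 3614 to 3915 CPM in FAPs from muscle, 2591 to 4066 in FAPs from lung and 113 to 159 in MEFs. In FAPs from lung, libraries differed in genes of other cells: 7 lung epithelium markers summed to 24.3 to 7885 CPM with the maximum in lung FAP 3. The 7 endothelium markers summed to 37.5 to 614 CPM and the 8 markers of pericytes and smooth muscle to 274 to 1959, both with the maximum in lung FAP 2. In bulk RNA, fewer cells of a type and less RNA per cell cannot be told apart.

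The windows around the start sites of the hydroxylase genes that differed by at least 2-fold between FAPs from muscle and FAPs from lung, Plod1, P4ha1 and P4ha2, are shown first, because hypoxia-inducible factors are known regulators of collagen hydroxylase genes. The RefSeq promoter table (GRCm38.p6) held 5 of the 10 members, Loxl4, Plod1, Plod3, P4ha1 and P4ha2. Each window runs 5′ to 3′ from 250 bases before the start to 50 after it, and capitals mark ACGTG or GCGTG, core letters of the hypoxia response element, on either strand. The window of Plod1 lies at chr4:147936727-147937026 on the minus strand, that of P4ha1 at chr10:59323046-59323345 on the plus strand and that of P4ha2 at chr11:54100674-54100973 on the plus strand. The P4ha2 window lies inside the gene as placed by GENCODE M21, which starts at chr11:54100095. The stretch before that outer start was not searched.
Plod1: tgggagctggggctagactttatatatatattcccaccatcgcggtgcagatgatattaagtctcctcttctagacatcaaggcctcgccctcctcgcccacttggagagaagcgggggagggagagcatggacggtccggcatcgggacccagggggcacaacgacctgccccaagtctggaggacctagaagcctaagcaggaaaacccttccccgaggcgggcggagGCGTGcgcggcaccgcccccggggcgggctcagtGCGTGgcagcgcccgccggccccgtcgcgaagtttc
P4ha1: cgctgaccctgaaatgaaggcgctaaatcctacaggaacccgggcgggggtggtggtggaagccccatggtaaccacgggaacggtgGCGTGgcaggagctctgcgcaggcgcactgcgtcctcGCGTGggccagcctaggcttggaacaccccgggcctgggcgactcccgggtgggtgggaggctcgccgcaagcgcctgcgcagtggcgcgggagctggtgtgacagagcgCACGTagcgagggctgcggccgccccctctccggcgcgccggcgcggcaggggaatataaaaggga
P4ha2: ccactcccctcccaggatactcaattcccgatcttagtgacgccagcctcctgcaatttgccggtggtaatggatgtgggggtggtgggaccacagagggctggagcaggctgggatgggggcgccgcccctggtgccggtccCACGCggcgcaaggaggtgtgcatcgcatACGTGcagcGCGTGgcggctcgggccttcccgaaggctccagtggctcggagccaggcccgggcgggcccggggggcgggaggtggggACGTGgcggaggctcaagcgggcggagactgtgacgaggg

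The window of Plod1 held 2 of these matches, that of P4ha1 held 3 and that of P4ha2 held 4. Loxl4 had 1 match and Plod3 had 4. Either of the 2 motifs occurred in 43.8% of the 32851 windows in the table, ACGTG in 19.6% and GCGTG in 32.4%. GC content was 64.3% for Plod1 and 70.3% for both P4ha1 and P4ha2, against a median of 52.7% over all windows. Both motifs contain the letters CG, which occurred 25 times for Plod1, 32 for P4ha1 and 26 for P4ha2. The median over all windows was 7. The percentages of windows count those with at least 1 match and make no allowance for this. GGGCGG, the GC box bound by Sp factors, occurred 3 times for Plod1, 2 times for P4ha1 and 4 times for P4ha2, and in 35.7% of all windows. None of these GC boxes, searched on both strands, shared letters with a capitalised match. A match describes the letters of a window and no binding was measured.

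FAPs from muscle had higher levels than FAPs from lung of 9 of the 10 genes, and none was lower. Of all genes tested 48.2% passed, 23.2% higher and 25% lower in FAPs from muscle, and the median log2 fold change was 0.78 over the members and −0.04 over all genes. The differences were largest for Plod1 (4.15-fold), Loxl2 (3.31-fold), P4ha2 (2.72-fold) and P4ha1 (2.01-fold). Loxl1 was the member that did not pass. Every muscle FAP library lay above every lung FAP library in those 9 genes, a pattern found in 19% of all genes tested. The plot of levels by library shows these separations.

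**Figure D1:**
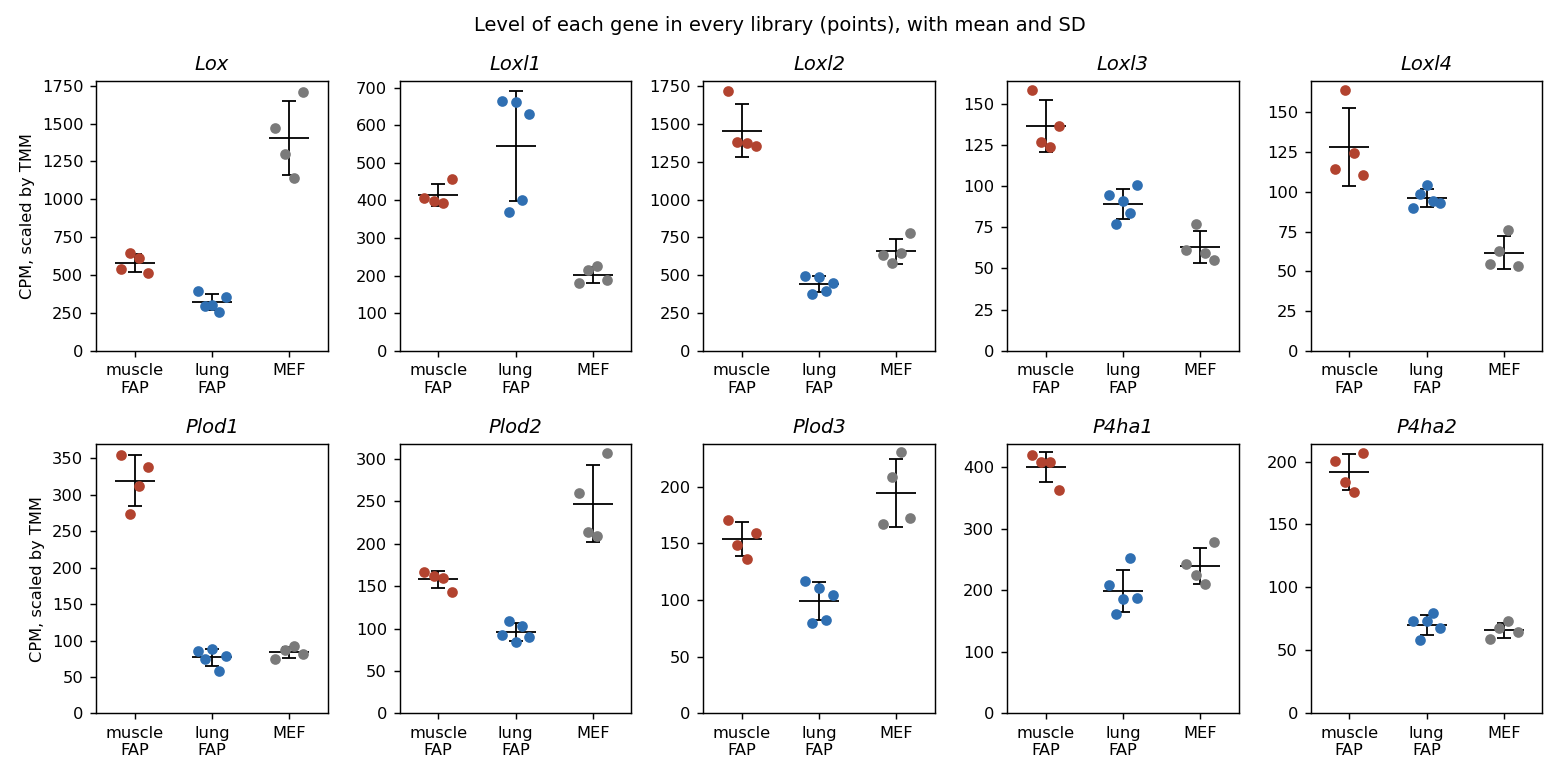
Level of each of the 10 genes in CPM (y axis, linear, with its own scale per gene) in FAPs from muscle, FAPs from lung and MEFs, with a point per library, a line at the group mean and error bars of 1 SD. Lox is highest in the 4 MEF libraries, Loxl2 and Plod1 are highest in the 4 muscle FAP libraries, and the 5 lung FAP libraries are split for Loxl1.

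Lox (chr18:52516067-52529867 in GRCm38, minus strand) encodes the founding enzyme of its family, which cross-links fibrillar collagen and elastin. It stood at 540.1, 643, 610.1 and 515 CPM in FAPs from muscle, 394, 297, 303, 258 and 358 CPM in FAPs from lung, and 1468, 1300, 1142 and 1709 CPM in MEFs. The 3 groups did not overlap, with MEFs highest and FAPs from lung lowest. Lox was 1.79-fold higher in FAPs from muscle than in FAPs from lung (log2 fold change 0.84, SE 0.13, edgeR adjusted p = 0.000239). It was 2.43-fold lower in FAPs from muscle than in MEFs (−1.28, SE 0.14, adjusted p = 2.59e-06 in edgeR) and 4.36-fold lower in FAPs from lung than in MEFs (−2.13, SE 0.16, adjusted p = 4.71e-09). No other member differed as much between FAPs from lung and MEFs.

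Loxl1 (chr9:58287738-58313186, minus strand), which is needed to renew elastic fibres in mice, had a different order of groups. Its level was 407, 398, 394 and 457 CPM in FAPs from muscle, 664, 369, 661, 399.9 and 629 CPM in FAPs from lung, and 179, 214, 225 and 188 CPM in MEFs. Lung FAP 2 and lung FAP 4 lay within or near the range of FAPs from muscle, and the other 3 lung FAP libraries lay well above it. Between FAPs from muscle and FAPs from lung the log2 fold change was −0.40 (SE 0.19) and did not pass (edgeR adjusted p = 0.0706). Leaving out lung FAP 2 gave −0.49, which passed (edgeR adjusted p = 0.0126), as it did without lung FAP 4 (−0.48, adjusted p = 0.0225). The share of all counts taken by Gsn, the gene with most counts in each FAP library, was 3.42% in lung FAP 2, 3.93% in lung FAP 4 and between 4.91% and 5.12% in the other 3 libraries from lung, and its part in the split was not tested. Against MEFs, Loxl1 was 2.05-fold higher in FAPs from muscle (1.04, SE 0.092, edgeR adjusted p = 0.000107) and 2.70-fold higher in FAPs from lung (1.43, SE 0.20, adjusted p = 2.85e-06).

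Loxl2 (chr14:69609068-69695834, plus strand) carries scavenger receptor domains and can cross-link type IV collagen of basement membranes. It reached 1717, 1378, 1377 and 1353 CPM in FAPs from muscle, 495, 378, 490.0, 392 and 447 CPM in FAPs from lung, and 635, 581, 644 and 777 CPM in MEFs. Each muscle FAP library was above every library of the other groups, and the lung FAP libraries were below all MEF libraries. Loxl2 was 3.31-fold higher in FAPs from muscle than in FAPs from lung (1.73, SE 0.11, edgeR adjusted p = 7.56e-08) and 2.21-fold higher than in MEFs (1.14, SE 0.12, adjusted p = 2.06e-06). In FAPs from lung it was lower than in MEFs (−0.58, SE 0.12, edgeR adjusted p = 0.000737).

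Loxl3 (chr6:83034173-83052562, plus strand) and Loxl4 (chr19:42593982-42612813, minus strand) are the other members with scavenger receptor domains, and mouse embryos need Loxl3 for the palate and spine. Loxl3 ranged from 124 to 159 CPM in FAPs from muscle, 77.2 to 101 in FAPs from lung and 54.9 to 76.9 in MEFs. Loxl4 ranged from 111 to 164 CPM in FAPs from muscle, 89.8 to 104 in FAPs from lung and 53.6 to 75.9 in MEFs. Both were highest in FAPs from muscle and lowest in MEFs, with no overlap between groups. FAPs from muscle exceeded FAPs from lung by 1.53-fold for Loxl3 (0.61, SE 0.10, edgeR adjusted p = 0.000502) and by 1.34-fold for Loxl4 (0.42, SE 0.13, adjusted p = 0.0137). The Loxl4 difference did not pass without muscle FAP 3, its highest library (0.27, edgeR adjusted p = 0.0761). Relative to MEFs, FAPs from muscle were higher by 1.11 for Loxl3 and 1.06 for Loxl4 on the log2 scale, and FAPs from lung by 0.50 and 0.64 (largest edgeR adjusted p of the 4, 0.00116).

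Plod1 (chr4:147909753-147936767, minus strand) encodes a lysyl hydroxylase that acts on lysines within the triple helix. It stood at 355, 273, 312 and 338 CPM in FAPs from muscle, 85.8, 74.0, 88.8, 58.4 and 78.4 CPM in FAPs from lung, and 74.7, 86.5, 93.1 and 81.0 CPM in MEFs. The muscle FAP libraries were far above both other groups, whose ranges overlapped. Plod1 was 4.15-fold higher in FAPs from muscle than in FAPs from lung (2.05, SE 0.13, edgeR adjusted p = 1.08e-08) and 3.81-fold higher than in MEFs (1.93, SE 0.11, adjusted p = 4.57e-09), the widest differences of the 10 genes in both comparisons. FAPs from lung against MEFs gave −0.12 (SE 0.13, edgeR adjusted p = 0.389).

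Plod2 (chr9:92542223-92608428, plus strand) hydroxylates lysines in the collagen telopeptides, which sets the chemistry of the later cross-link. Its level was 167, 161, 159.6 and 143 CPM in FAPs from muscle, 92.2, 109, 83.6, 103 and 90.01 CPM in FAPs from lung, and 259, 214, 208 and 307 CPM in MEFs. The order was MEFs, FAPs from muscle, FAPs from lung, with no overlap, as for Lox. Plod2 was 1.65-fold higher in FAPs from muscle than in FAPs from lung (0.72, SE 0.084, edgeR adjusted p = 0.000167) and 1.57-fold lower than in MEFs (−0.65, SE 0.14, adjusted p = 0.000306). FAPs from lung were 2.58-fold below MEFs (−1.37, SE 0.15, edgeR adjusted p = 6.16e-08).

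Plod3 (chr5:136987019-136996648, plus strand) combines lysyl hydroxylase with sugar transferase activity. It ranged from 137 to 171 CPM in FAPs from muscle, 79.9 to 117 in FAPs from lung and 167 to 230.4 in MEFs. FAPs from muscle were clear of FAPs from lung but overlapped with MEFs. Plod3 was 1.56-fold higher in FAPs from muscle than in FAPs from lung (0.64, SE 0.13, edgeR adjusted p = 0.00116), and 1.97-fold lower in FAPs from lung than in MEFs (−0.98, SE 0.16, adjusted p = 8.42e-06). The lower level in FAPs from muscle than in MEFs (−0.34, SE 0.13, edgeR adjusted p = 0.0413) was lost without any 1 of 4 libraries. Its log2 fold change was −0.32 without MEF 2 (edgeR adjusted p = 0.0783), −0.27 without MEF 3 (0.104), −0.35 without muscle FAP 3 (0.0653) and −0.31 without muscle FAP 4 (0.0887).

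P4ha1 (chr10:59323296-59373304, plus strand) encodes the most widely expressed catalytic alpha subunit of prolyl 4-hydroxylase. Its level was 419.6, 409, 409 and 364 CPM in FAPs from muscle, 209, 161, 185, 252 and 187 CPM in FAPs from lung, and 243, 226, 211 and 279 CPM in MEFs. FAPs from muscle were above every other library, and FAPs from lung overlapped with MEFs. P4ha1 was 2.01-fold higher in FAPs from muscle than in FAPs from lung (1.01, SE 0.12, edgeR adjusted p = 1.26e-05) and 1.67-fold higher than in MEFs (0.74, SE 0.098, adjusted p = 0.000139). In FAPs from lung against MEFs it gave −0.27 (SE 0.14, edgeR adjusted p = 0.0665). That value passed without lung FAP 4 (−0.40, edgeR adjusted p = 0.00389) and without MEF 3 (−0.34, adjusted p = 0.0336).

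P4ha2 (chr11:54100095-54131665, plus strand) encodes the alternative alpha subunit, known from cartilage and other tissues. It stood at 200.1, 184, 176 and 207 CPM in FAPs from muscle, 73.1, 58.4, 73.0, 80.1 and 67.6 CPM in FAPs from lung, and 59.0, 67.5, 73.4 and 64.4 CPM in MEFs. The lowest muscle FAP library was more than 2-fold above the highest lung FAP library, and FAPs from lung and MEFs covered nearly the same range. P4ha2 was 2.72-fold higher in FAPs from muscle than in FAPs from lung (1.45, SE 0.093, edgeR adjusted p = 4.08e-08) and 2.90-fold higher than in MEFs (1.54, SE 0.084, adjusted p = 5.96e-09). FAPs from lung against MEFs gave 0.09 (SE 0.10, edgeR adjusted p = 0.428). P4ha3, a further alpha subunit that is not among the 10 genes, stood at 7.56 ± 2.43 CPM in FAPs from muscle, 5.85 ± 1.41 in FAPs from lung and 20.1 ± 2.83 in MEFs. It was lower in FAPs from muscle (−1.41, SE 0.25, edgeR adjusted p = 4.74e-05) and in FAPs from lung (−1.78, SE 0.19, adjusted p = 2.13e-06) than in MEFs, and gave 0.37 between both kinds of FAP (SE 0.27, adjusted p = 0.174).

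FAPs from muscle against MEFs divided the 10 genes into 7 that were higher and 3 that were lower, Lox, Plod2 and Plod3. Of all genes tested 73.5% passed, 36.1% higher and 37.3% lower, and the median log2 fold change was 1.05 over the members and −0.04 over all genes. The 7 higher genes and 2 of the lower ones had no overlap between libraries, patterns found in 35.7% and 38.2% of all genes. FAPs from lung against MEFs gave 3 higher genes, Loxl1, Loxl3 and Loxl4, and 4 lower ones, Lox, Loxl2, Plod2 and Plod3. Of all genes 74.4% passed in that comparison, 37.8% higher and 36.6% lower, and Plod1, P4ha1 and P4ha2 did not pass. The medians were −0.19 over the members and 0.02 over all genes, and the 7 genes that passed had no overlap, as did 32.2% of all genes upwards and 33.1% downwards. The comparisons share groups, so their values for a gene are not independent.

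**Figure D2:**
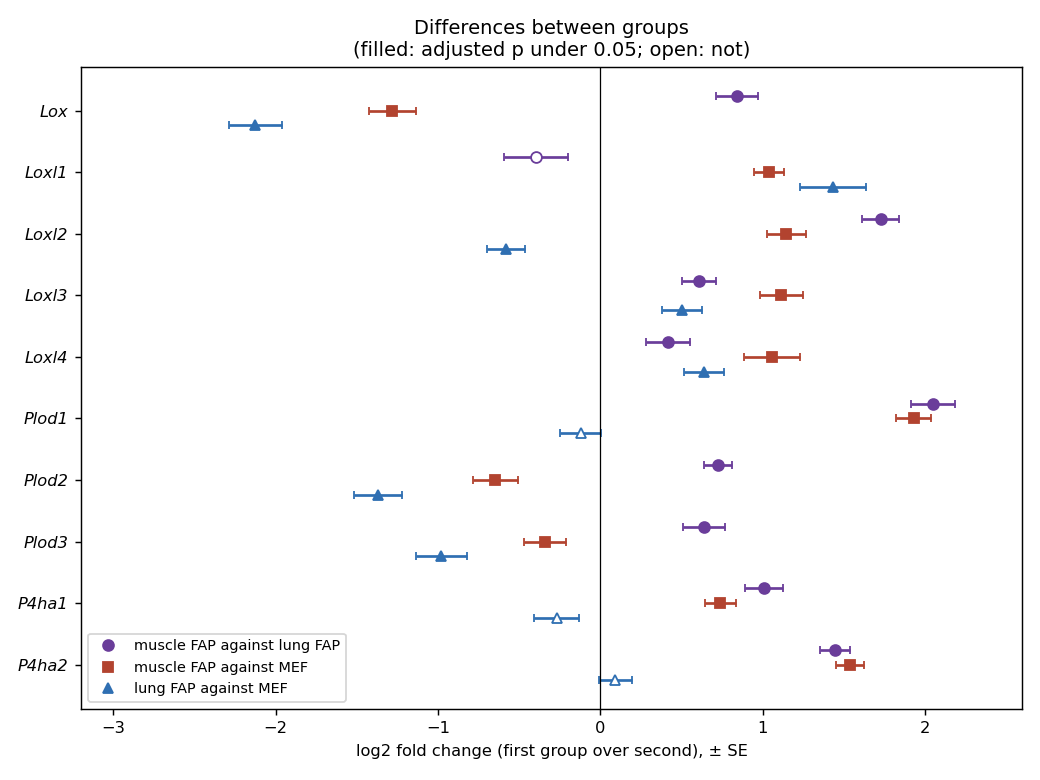
Log2 fold change ± SE (x axis, first group over second) of each of the 10 genes in the 3 comparisons, with filled symbols for an edgeR adjusted p under 0.05 and open symbols for the rest. The widest values are 2.05 for Plod1 in FAPs from muscle against FAPs from lung and −2.13 for Lox in FAPs from lung against MEFs.

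Ratios of counts between members of a family, taken within a library, do not depend on how libraries are scaled to each other. Loxl2 over Lox had a geometric mean of 2.52 in FAPs from muscle, 1.37 in FAPs from lung and 0.472 in MEFs. Loxl1 over Lox was 0.718 in FAPs from muscle, 1.66 in FAPs from lung and 0.144 in MEFs. Both ratios separated all 3 groups without overlap, and FAPs from lung were the group in which Loxl1 had more counts than Lox in every library (1.24 to 2.18). Loxl3 over Lox was 0.236 in FAPs from muscle, 0.280 in FAPs from lung and 0.0450 in MEFs. Loxl4 over Lox was 0.220 in FAPs from muscle, 0.301 in FAPs from lung and 0.0440 in MEFs. For these 2 ratios FAPs from muscle and FAPs from lung overlapped and both were clear of MEFs.

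Plod2 over Plod1 was 0.496 in FAPs from muscle, 1.25 in FAPs from lung and 2.92 in MEFs, again without overlap between groups. Plod3 over Plod1 followed the same order, with 0.482 in FAPs from muscle, 1.28 in FAPs from lung and 2.31 in MEFs. The Plod2 over Plod1 ratio was thus 2.52-fold lower in FAPs from muscle than in FAPs from lung and 5.89-fold lower than in MEFs. P4ha2 over P4ha1 was 0.479 in FAPs from muscle, 0.356 in FAPs from lung and 0.276 in MEFs, and FAPs from lung overlapped with MEFs. These ratios are given as descriptions, without a test.

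**Figure D3:**
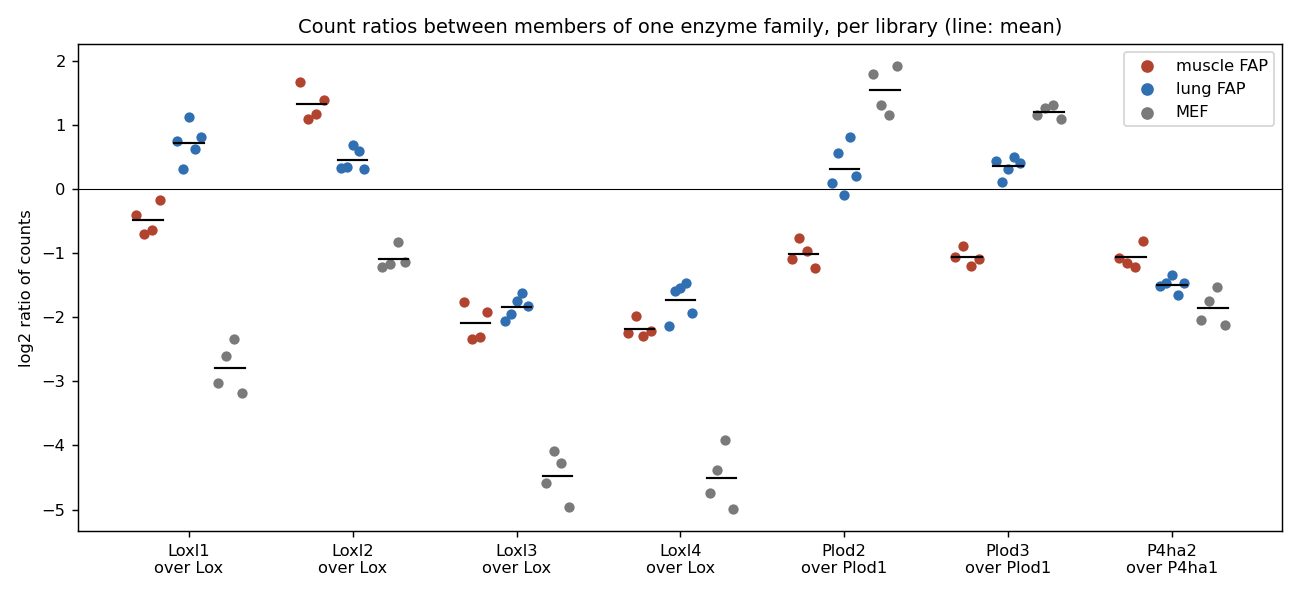
Log2 ratio of counts of 2 members of a family within each library, for 7 ratios in FAPs from muscle, FAPs from lung and MEFs, with 1 point per library and a line at the group mean. Plod2 over Plod1 and Plod3 over Plod1 lie lowest in FAPs from muscle and highest in MEFs, and the ratios over Lox lie lowest in MEFs.

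Levels of different genes were compared per kilobase of exon (CPM per kb, GENCODE M21 exon unions). The 5 lysyl oxidases summed to 583 ± 28.8 CPM per kb in FAPs from muscle, 362 ± 64.7 in FAPs from lung and 509 ± 54.9 in MEFs. Loxl2 made up the largest part of that sum in FAPs from muscle, at 46.1% ± 3.32, against 22.7% ± 1.65 in FAPs from lung and 23.96% ± 1.52 in MEFs. In FAPs from lung the leading gene was Loxl1 at 45.1% ± 4.74, against 21.6% ± 2.18 in FAPs from muscle and 12.2% ± 2.38 in MEFs. In MEFs it was Lox at 57.5% ± 4.23, against 20.8% ± 2.41 in FAPs from muscle and 18.8% ± 2.103 in FAPs from lung. Each group had its own leading lysyl oxidase, in every library. Loxl3 and Loxl4 were the smaller parts in all 3 groups, with means from 3.06% to 7.30% each.

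The 3 lysyl hydroxylases summed to 178 ± 13.5 CPM per kb in FAPs from muscle, 77.2 ± 5.84 in FAPs from lung and 149 ± 7.16 in MEFs. Plod1 held 49.7% ± 2.48 of the sum in FAPs from muscle, 27.5% ± 2.55 in FAPs from lung and 15.6% ± 1.35 in MEFs. Plod2 held 23.99% ± 2.24 in FAPs from muscle, 33.7% ± 5.82 in FAPs from lung and 44.6% ± 7.45 in MEFs. Plod3 held 26.3% ± 1.38 in FAPs from muscle, 38.8% ± 4.08 in FAPs from lung and 39.8% ± 6.09 in MEFs. The share of Plod1 separated all 3 groups, and the highest mean share in FAPs from lung was that of Plod3. The alpha subunits, P4ha3 included, summed to 182 ± 5.41 CPM per kb in FAPs from muscle, 81.0 ± 11.4 in FAPs from lung and 95.05 ± 4.75 in MEFs. P4ha1 had the highest mean share in every group, with 53.3% ± 2.99 in FAPs from muscle, 59.6% ± 2.25 in FAPs from lung and 61.2% ± 4.76 in MEFs, while P4ha3 held 1.76% in FAPs from muscle, 3.13% in FAPs from lung and 9.03% in MEFs.

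**Figure D4:**
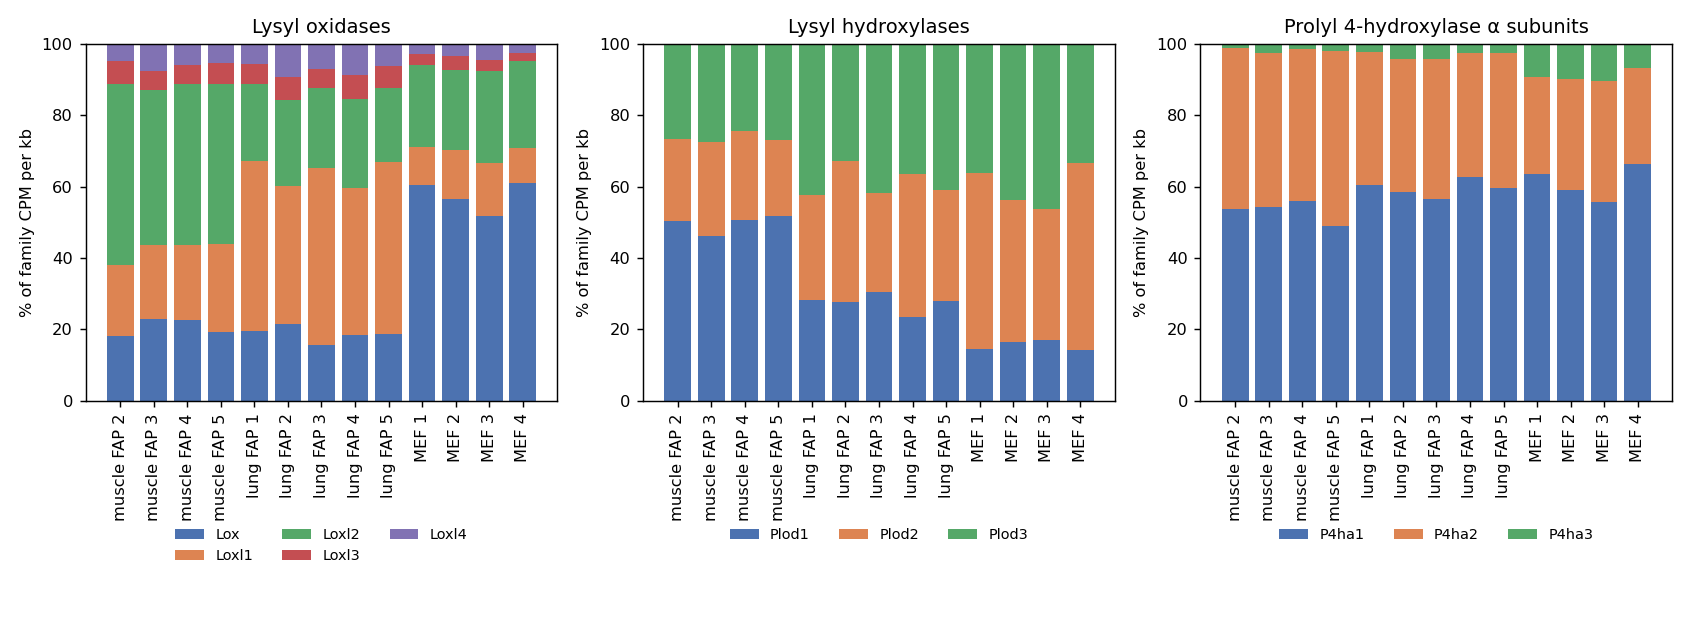
Share of each gene in the summed CPM per kb of its enzyme family, in percent, as 1 stacked bar per library, with FAPs from muscle at the left, FAPs from lung in the middle and MEFs at the right of each panel. Loxl2 has the largest mean share of the lysyl oxidases in FAPs from muscle (46.1%), Loxl1 in FAPs from lung (45.1%) and Lox in MEFs (57.5%).

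The scaling between libraries set how many members were called. With library size as the only scaling, the median log2 fold change over all genes moved by −0.41 for FAPs from muscle against FAPs from lung, −0.58 for FAPs from muscle against MEFs and −0.17 for FAPs from lung against MEFs. Of the genes called between FAPs from muscle and FAPs from lung, 18.8% were then higher, against 48.1% under TMM. Between FAPs from muscle and MEFs 31.7% were then higher, against 49.2% under TMM. The members higher in FAPs from muscle than in FAPs from lung were then 5, Lox, Loxl2, Plod1, P4ha1 and P4ha2, and Loxl1 was lower (−0.79, edgeR adjusted p = 0.000498). Loxl3 (0.21), Loxl4 (0.01), Plod2 (0.31) and Plod3 (0.24) no longer passed in that comparison. P4ha1 no longer passed for FAPs from muscle against MEFs (0.16, edgeR adjusted p = 0.258), and Plod1 (−0.29, adjusted p = 0.0372) and P4ha1 (−0.45, adjusted p = 0.00338) newly passed as lower for FAPs from lung against MEFs. Relative to the median of all genes, 9 members lay above it for FAPs from muscle against FAPs from lung, 7 for FAPs from muscle against MEFs and 4 for FAPs from lung against MEFs, under each of the 4 scalings tried. A change of scaling moves all genes by nearly the same amount. These counts could therefore hardly change and do not test the scaling.

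**Figure D5:**
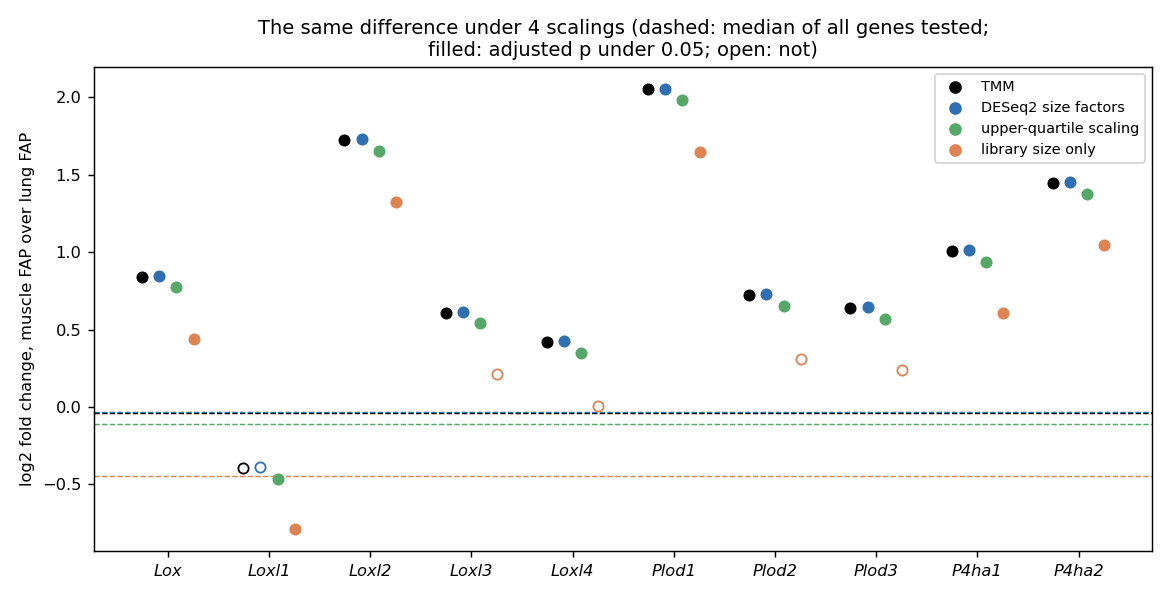
Log2 fold change of the 10 genes under 4 scalings between libraries (TMM, DESeq2 size factors, upper quartile, library size only) for FAPs from muscle against FAPs from lung, with dashed lines at the median of all genes tested and filled points for an adjusted p under 0.05. With library size alone the median of all genes moves by −0.41 and Loxl3, Loxl4, Plod2 and Plod3 turn to open points.

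The genes closest in pattern to 1 member of each family were found by the root mean square difference of log2 CPM, each gene centred on its own mean over the 13 libraries. Nearest to Lox were Itgav (0.14), Rtn4 (0.19) and Hspa9 (0.19). Nearest to Plod1 were Ece1 (0.19), Col5a1 (0.26) and Pcdhga11 (0.26), and nearest to P4ha2 were Pik3r2 (0.20), Sqstm1 (0.20) and Spats2 (0.21). Among the members the closest pair was Loxl3 and Loxl4 (0.26), followed by Plod1 and P4ha2 (0.32). Lox and Loxl1 were the farthest apart (1.49).

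Substrates of these enzymes were higher in FAPs from muscle than in FAPs from lung in 9 of 10 genes, with none lower and a median log2 fold change of 1.62. Of all genes tested 23.2% were higher and 25% lower in that comparison. Scaled by library size alone, 8 were higher and 1 lower, against 11.2% and 48.4% of all genes. Col4a2, a chain of basement membrane collagen, averaged 3856 ± 534 CPM in FAPs from muscle and 430 ± 149 in FAPs from lung (3.17, SE 0.32, edgeR adjusted p = 2.15e-07). Col11a1, a minor fibrillar chain, averaged 21.2 ± 6.30 CPM in FAPs from muscle and 0.543 ± 0.282 in FAPs from lung (5.28, SE 0.59, edgeR adjusted p = 1.45e-07). Elastin, Eln, averaged 1190 ± 354 CPM in FAPs from muscle and 1656 ± 474 in FAPs from lung and did not pass (−0.48, SE 0.31, edgeR adjusted p = 0.154). Against MEFs, 8 substrates were higher and 2 lower in FAPs from muscle, and 4 were higher, 4 lower and 2 not called in FAPs from lung. The shares of all genes against MEFs were 36.1% higher and 37.3% lower in FAPs from muscle, and 37.8% and 36.6% in FAPs from lung. These shares apply to the lists below as well, and a count near them is not a result about a list. Col3a1, a fibrillar collagen of soft tissue, was 6.34 higher on the log2 scale in FAPs from muscle than in MEFs (SE 0.14, edgeR adjusted p = 8.29e-12). Col2a1, the collagen of cartilage, fell by 5.50 in FAPs from muscle against MEFs (SE 0.58, edgeR adjusted p = 3.32e-07) and by 8.93 in FAPs from lung against MEFs (SE 0.55, adjusted p = 1.10e-08).

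Of 16 other collagen modifying enzymes and chaperones, 11 were higher in FAPs from muscle than in FAPs from lung, 1 was lower and 4 did not pass. Of all genes tested 23.2% were higher and 25% lower. With library size alone 4 of the list were higher and 4 lower, against 11.2% and 48.4% of all genes. Serpinh1, the collagen chaperone HSP47, averaged 2993 ± 322 CPM in FAPs from muscle and 1454 ± 205 in FAPs from lung (1.04, SE 0.12, edgeR adjusted p = 2.11e-05). Glt25d2, an older symbol of the collagen galactosyltransferase Colgalt2, averaged 88.9 ± 9.39 CPM in FAPs from muscle, 16.1 ± 2.57 in FAPs from lung and 0.501 ± 0.172 in MEFs. It was 2.46 higher in FAPs from muscle than in FAPs from lung on the log2 scale (SE 0.13, edgeR adjusted p = 1.25e-08). Leprel1, the prolyl 3-hydroxylase P3h2, was 2.27 higher in that comparison (SE 0.65, edgeR adjusted p = 0.00198). Its levels were low, at 6.02 ± 1.43 CPM in FAPs from muscle, 1.24 ± 1.04 in FAPs from lung and 8.71 ± 1.38 in MEFs. Leprel1 did not pass for FAPs from muscle against MEFs (−0.53, SE 0.20, edgeR adjusted p = 0.353). Fkbp7, a prolyl isomerase of the endoplasmic reticulum, was higher than in MEFs by 3.36 in FAPs from muscle (SE 0.070, edgeR adjusted p = 6.33e-13) and by 2.91 in FAPs from lung (SE 0.072, adjusted p = 1.54e-12). P4hb, the partner of the alpha subunits, averaged 1051 ± 49.2 CPM in FAPs from muscle, 755 ± 96.9 in FAPs from lung and 1245 ± 135 in MEFs. Against MEFs this list gave 11 higher, 3 lower and 2 not called in FAPs from muscle, and 8 higher, 7 lower and 1 not called in FAPs from lung. Scaling by library size alone gave 6 higher and 5 lower in FAPs from muscle, and 7 higher and 7 lower in FAPs from lung. All genes then gave 24.4% higher and 52.5% lower in FAPs from muscle, and 33.9% and 41.0% in FAPs from lung.

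Procollagen processing and fibril assembly had 10 of 14 genes higher in FAPs from muscle than in FAPs from lung, 1 lower and 3 not called. Of all genes tested 23.2% were higher and 25% lower. The counts of the list were 9 higher and 3 lower with library size alone, against 11.2% and 48.4% of all genes. Adamts14, a procollagen peptidase, was 3.15 higher on the log2 scale (SE 0.24, edgeR adjusted p = 3.65e-08). Pcolce2, an enhancer of procollagen cleavage, was the lower gene, at 269.7 ± 19.7 CPM in FAPs from muscle and 1006 ± 143 in FAPs from lung (−1.90, SE 0.10, edgeR adjusted p = 1.35e-07). Bmp1, the proteinase that activates pro-lysyl oxidase, averaged 973 ± 102 CPM in FAPs from muscle, 489 ± 112 in FAPs from lung and 226 ± 28.0 in MEFs. Bmp1 was 0.99 higher in FAPs from muscle than in FAPs from lung on the log2 scale (SE 0.19, edgeR adjusted p = 0.000167). Against MEFs, 12 genes were higher and 1 lower in FAPs from muscle and 11 higher and 1 lower in FAPs from lung. Tnxb, a matrix protein that binds collagen fibrils, was higher than in MEFs by 10.01 in FAPs from muscle (SE 0.17, edgeR adjusted p = 4.99e-10) and by 8.42 in FAPs from lung (SE 0.44, adjusted p = 1.46e-09). Dcn, a small proteoglycan of collagen fibrils, was higher by 8.14 in FAPs from muscle (SE 0.19, edgeR adjusted p = 2.21e-12) and by 7.56 in FAPs from lung (SE 0.23, adjusted p = 3.11e-12).

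Of 8 elastic fibre partners of the lysyl oxidases, 2 were higher in FAPs from muscle than in FAPs from lung, 1 was lower and 5 did not pass. Of all genes tested 23.2% were higher and 25% lower. With library size alone 1 partner was higher and 3 lower, against 11.2% and 48.4% of all genes. Fbn2, a fibrillin of developing tissue, was higher (1.37, SE 0.50, edgeR adjusted p = 0.00920; with limma-voom 1.06, adjusted p = 0.115) and Mfap4, a microfibril protein, was lower (−1.23, SE 0.33, adjusted p = 0.00130). Against MEFs 4 were higher, 3 lower and 1 not called in FAPs from muscle, and the counts in FAPs from lung were also 4, 3 and 1. Of all genes 36.1% were higher and 37.3% lower in FAPs from muscle, and 37.8% and 36.6% in FAPs from lung. Library size alone gave 3 higher and 4 lower in FAPs from muscle, and 4 higher and 4 lower in FAPs from lung. All genes then gave 24.4% higher and 52.5% lower in FAPs from muscle, and 33.9% and 41.0% in FAPs from lung. Ltbp4, a latent TGF-beta binding protein of elastic fibres, was higher than in MEFs by 7.76 in FAPs from muscle (SE 0.065, edgeR adjusted p = 4.99e-10) and by 7.17 in FAPs from lung (SE 0.38, adjusted p = 7.52e-10).

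Among 6 genes of copper delivery, 1 was higher, 1 lower and 4 not called in FAPs from muscle against FAPs from lung, and with library size alone 0 were higher and 3 lower. Of all genes tested 23.2% were higher and 25% lower, or 11.2% and 48.4% with library size alone. The higher gene was the copper importer Slc31a1 (0.62, SE 0.080, edgeR adjusted p = 0.000123), which did not pass with library size alone, and the lower one was Slc31a2 (−0.76, SE 0.15, adjusted p = 0.000205). Against MEFs 1 was higher and 2 lower in FAPs from muscle and 2 higher and 3 lower in FAPs from lung. Of all genes 36.1% were higher and 37.3% lower in FAPs from muscle, and 37.8% and 36.6% in FAPs from lung. With library size alone the counts of the list were 0 higher and 4 lower in FAPs from muscle, and 1 higher and 3 lower in FAPs from lung. All genes then gave 24.4% higher and 52.5% lower in FAPs from muscle, and 33.9% and 41.0% in FAPs from lung. The copper chaperones Atox1 and Ccs were lower in both kinds of FAP, by 0.64 and 0.76 in FAPs from muscle and by 0.80 and 0.81 in FAPs from lung on the log2 scale (largest edgeR adjusted p of the 4, 0.000558). Among 8 genes of dioxygenase cofactors, 4 were higher, 1 lower and 3 not called in FAPs from muscle against FAPs from lung, and with library size alone 2 were higher and 1 lower. The iron transporter Slc11a2 averaged 106 ± 23.2 CPM in FAPs from muscle and 24.99 ± 5.19 in FAPs from lung (2.08, SE 0.21, edgeR adjusted p = 1.07e-07). Tfrc, the transferrin receptor, was 1.23 higher (SE 0.37, edgeR adjusted p = 0.00896) and did not pass with library size alone. Against MEFs 4 cofactor genes were higher and 4 lower in FAPs from muscle, and 2 higher and 5 lower in FAPs from lung. Library size alone gave 2 higher and 5 lower in FAPs from muscle, against 24.4% and 52.5% of all genes. Gsto1, which can reduce dehydroascorbate, was lower than in MEFs by the widest margin of this list, −5.24 in FAPs from muscle (SE 0.19, edgeR adjusted p = 7.24e-08) and −5.77 in FAPs from lung (SE 0.36, adjusted p = 1.19e-08).

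The list of hypoxia-inducible factor targets and oxygen sensing genes had 8 of 16 higher in FAPs from muscle than in FAPs from lung, 3 lower and 5 not called, with a median of 0.41. Of all genes tested 23.2% were higher and 25% lower. With library size alone 3 of the list were higher and 7 lower, against 11.2% and 48.4% of all genes. Ddit4, a stress-induced inhibitor of mTOR signalling, averaged 154 ± 29.2 CPM in FAPs from muscle and 36.4 ± 13.2 in FAPs from lung (2.08, SE 0.28, edgeR adjusted p = 5.83e-06). Hif1a, the oxygen-regulated transcription factor subunit, averaged 257 ± 38.2 CPM in FAPs from muscle and 102 ± 9.29 in FAPs from lung (1.33, SE 0.13, edgeR adjusted p = 1.81e-06). The 3 lower genes were Egln3, Bnip3 and Car9. Egln3 averaged 5.24 ± 1.14 CPM in FAPs from muscle and 12.9 ± 3.70 in FAPs from lung. In the same order Bnip3 averaged 40.4 ± 2.89 and 58.5 ± 3.47, and Car9 0.170 ± 0.151 and 1.17 ± 0.547. Against MEFs the list gave 7 higher and 6 lower in FAPs from muscle, and 5 higher and 9 lower in FAPs from lung. Of all genes 36.1% were higher and 37.3% lower in FAPs from muscle, and 37.8% and 36.6% in FAPs from lung. With library size alone 5 of the list were higher and 9 lower in FAPs from muscle, and 4 higher and 10 lower in FAPs from lung. All genes then gave 24.4% higher and 52.5% lower in FAPs from muscle, and 33.9% and 41.0% in FAPs from lung. Epas1, the related HIF-2 alpha subunit, was higher than in MEFs by 3.46 in FAPs from muscle (SE 0.22, edgeR adjusted p = 3.80e-05) and by 4.19 in FAPs from lung (SE 0.45, adjusted p = 7.12e-06). The libraries from lung ran from 68.6 to 348 CPM, with a median of 102, and without lung FAP 2 the log2 fold change was 3.56. Adm, a hypoxia-induced peptide hormone, was higher by 2.69 in FAPs from muscle (SE 0.10, edgeR adjusted p = 2.37e-09) and by 2.17 in FAPs from lung (SE 0.18, adjusted p = 1.46e-08). Pdk1 was among the genes lower than in MEFs in both kinds of FAP. It averaged 9.39 ± 0.452 CPM in FAPs from muscle, 7.36 ± 1.36 in FAPs from lung and 19.0 ± 6.89 in MEFs.

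Markers of other matrix-producing cells also differed between the groups. The 6 tenocyte markers summed to 1013 to 1776 CPM in FAPs from muscle, 8.56 to 61.0 in FAPs from lung and 41.7 to 43.1 in MEFs. All 6 were higher in FAPs from muscle than in FAPs from lung, as were 23.2% of all genes tested. Thbs4 made up most of that sum in FAPs from muscle, at 1188 ± 335 CPM, while Scx, a defining factor of tendon, stood at 0.730 ± 0.324. Tnmd averaged 52.1 ± 16.2 CPM in FAPs from muscle and 0.724 ± 0.547 in FAPs from lung. In the same order Comp averaged 108 ± 30.9 and 1.68 ± 1.22, Kera 26.8 ± 7.17 and 0.132 ± 0.279, and Mkx 2.93 ± 0.915 and 0.925 ± 0.822. The 6 markers of chondrocytes and osteoblasts summed to 37.9 to 63.6 CPM in FAPs from muscle, 7.79 to 10.6 in FAPs from lung and 52.6 to 58.3 in MEFs. The 8 markers of pericytes and smooth muscle summed to 100.4 to 108 CPM in FAPs from muscle, 274 to 1959 in FAPs from lung and 2176 to 3882 in MEFs. In FAPs from muscle against FAPs from lung 1 of them was higher, 6 were lower and 1 did not pass, beside 23.2% of all genes higher and 25% lower. The higher one was Cspg4, at 54.3 ± 3.39 CPM in FAPs from muscle and 17.5 ± 16.0 in FAPs from lung. Mesothelium markers summed to 1.15 to 27.0 CPM in FAPs from muscle, 361 to 856 in FAPs from lung and 102 to 135 in MEFs. The 7 blood cell markers summed to 6.13 to 8.43 CPM in FAPs from muscle, 26.7 to 644 in FAPs from lung, with the maximum in lung FAP 3, and 121 to 456 in MEFs. Satellite cell and myoblast markers summed to at most 0.473 CPM in FAPs from muscle, 0.913 in FAPs from lung and 5.58 in MEFs, with Pax7 at 0 in FAPs from muscle. Muscle fibre markers summed to at most 12.5 CPM in FAPs from muscle, 35.1 in FAPs from lung and 24.5 in MEFs. The part of these markers in the levels of the 10 genes was not tested. Lung FAP 2 and lung FAP 3 were the libraries with the maxima of the endothelium and epithelium markers. Without them 9 members, the same number, were higher in FAPs from muscle than in FAPs from lung. Loxl1 was then lower (−0.45, edgeR adjusted p = 0.0327). The remaining lung FAP libraries still had mesothelium markers of at least 361 CPM, so leaving out these libraries does not test the part of other cells.

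Exons of some members overlap genes on the opposite strand in GENCODE M21, and the strand setting of the counting is not given, so reads from such stretches cannot be told apart. For Plod3 the overlap with Znhit1 covers 529 bases, or 16.1% of its exons, and for Loxl3 the overlap with Htra2 covers 535 bases, or 13.1%. Plod2 shares 346 bases (9.32%) with Gm38391 and Loxl2 shares 301 bases (5.57%) with Gm27177. The other members share at most 30 bases with an opposite-strand gene.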

How the data were processed

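The table that the authors deposited holds whole-number read counts of 23418 genes in 13 libraries. The submitters' processing notes list Bowtie2 2.1.0.0, HTSeq, edgeR and the build mm10, without saying what each was used for. Annotation, strand setting and sequencing batches were not given in the sources used here.

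Counts were tested with edgeR 4.0.16 in R 4.3.3 (filterByExpr by group, TMM, robust quasi-likelihood fit, 1 fit over all 13 libraries, group as the only factor), with Benjamini-Hochberg adjustment over the 15412 genes tested. The SE of a log2 fold change is from log2 CPM with a prior count of 2. Exon lengths and gene positions are from GENCODE M21 (GRCm38), which need not be the authors' annotation, and promoter windows from RefSeq. The fit was run on simulated data in which few genes differed between groups, so that run does not test the scaling of these libraries. Total counts of 28636183 to 44699463 gave at least 1757 counts for each member in each library.

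The 10 members and the 7 pathway and 10 marker lists were chosen with earlier results of these data known, so their counts are descriptions. All 78 pathway genes were in the table, some under older symbols. All members are named; from each pathway list the 2 passing genes with the widest log2 fold change in a comparison were taken where the higher group reached 5 CPM, and some of them, with further genes as examples, are given. Alternatives were DESeq2 1.42.0 size factors and Wald test, upper-quartile scaling, library size only, no filter, at least 5 CPM in 4 libraries, limma 3.58.1 voom with sample weights, a fit of only the groups compared, a block for the replicate number, and every library left out in turn. Leaving out lung FAP 2 and 3 together was chosen after seeing the data.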

Additional observations from a re-analysis of the deposited data

Results flagged for a closer look

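Loxl2 in muscle FAP 2 stood at 1717 CPM, apart from the other 3 muscle FAP libraries at 1353 to 1378 CPM. Its gap to the nearest library was 0.932 of the range of the group. It was the only library to stand apart in this way over 30 groups of values (10 genes in 3 groups), where chance alone would give about 1 in 20 groups. Without muscle FAP 2 Loxl2 was still higher in FAPs from muscle than in FAPs from lung (log2 fold change 1.64) and than in MEFs (1.04).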

How the results depend on the processing

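Of the members' log2 fold changes recomputed under the alternatives, 661 kept direction and side of the threshold, 16 newly passed, 12 no longer passed and 1 changed sign; differences between groups in the ratios of family members, recomputed 182 times with 1 library left out, moved by less than their spread. Of the pathway genes' values, 4197 kept both, 154 no longer passed, 1 newly passed and 9 changed sign. Between FAPs from muscle and FAPs from lung, the number of members lower was 1 (Loxl1) in place of 0 with upper-quartile scaling (−0.46, adjusted p = 0.0336), the filter of 5 CPM (−0.42, 0.0490), DESeq2's Wald test (−0.39, 0.0485), limma-voom (−0.49, 0.00775), library size only and without lung FAP 2 and 3, and the count ranged from 0 to 1 when each library was left out. With library size only, which moves the median of all genes, 5 members and 1730 genes were higher and 1 member and 7455 genes lower, against 3574 and 3850 genes under TMM. That scaling turned the sign of P4ha2 in FAPs from lung against MEFs (−0.082), of P4ha3 (−0.047) and Leprel2 (−0.14) in FAPs from muscle against FAPs from lung, and in FAPs from muscle against MEFs of Atp7a (−0.030), Crtap (−0.077), Ddit4 (−0.00077), Glt25d1 (−0.31), Idh2 (−0.29), Lepre1 (−0.056) and Tmem38b (−0.11). For the other changes the cause was not tested. P4ha1 in FAPs from lung against MEFs passed with DESeq2 size factors (−0.30, adjusted p = 0.0383) and in 4 other settings beside leaving out a library. Plod3 in FAPs from muscle against MEFs did not pass with the filter of 5 CPM (−0.29, adjusted p = 0.0734).

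Deviations of same-numbered libraries from their group means correlated from −0.048 to 0.061, so no strong shared deviation was seen. Such correlations cannot settle whether same-numbered libraries share an animal or a batch. With the replicate number as a block, 9 members were higher in FAPs from muscle than in FAPs from lung, and Plod3 in FAPs from muscle against MEFs gave −0.35 (adjusted p = 0.0579). The block changed no other call among the members.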

Other observations

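Within the 4 MEF libraries the members fell into recurring rank orders, a pattern noticed after the values were seen and given without a test. Lox, Plod2 and P4ha1 were all highest in MEF 4, then MEF 1, MEF 2 and MEF 3, an order found in 12.5% of all genes tested. Lox stood at 1709 CPM in MEF 4 and 1142 in MEF 3, and Plod2 at 307 CPM in MEF 4 and 208 in MEF 3. Of the 16 oxygen sensing genes and hypoxia-inducible factor targets, 5 had that same order, among them Hif1a (178 CPM in MEF 4 and 118 in MEF 3) and Pdk1, a mitochondrial kinase (25.9 CPM in MEF 4 and 9.91 in MEF 3). Egln2, Vhl and Car9 of that list had the reverse order, and Hif1an and Ddit4 were also highest in MEF 3. The reverse order, MEF 3, MEF 2, MEF 1 and MEF 4, was the commonest over all genes tested (17.7%). Loxl1, Plod1, Plod3 and P4ha2 were highest in MEF 3, then MEF 2, MEF 4 and MEF 1, an order found in 8.52% of all genes tested. MEF libraries thus differed in opposite senses for members of 1 family: Plod2 was highest in MEF 4, where Plod1 and Plod3 were second lowest.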
